A study of Rattus norvegicus with 4 samples.

Results

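The Cyp2c genes of rat liver are a cluster of cytochrome P450 genes, of which 6 are described here: Cyp2c11, Cyp2c13, Cyp2c22, Cyp2c7, Cyp2c12 and Cyp2c23. They were chosen by symbol. Every probe set of the array whose annotation named exactly 1 of these genes was taken, which gave 6 probe sets, 1 for each gene, out of 15923 probe sets and 10412 named genes. The livers came from 4 male Sprague-Dawley rats aged 10 to 12 weeks, fed ad libitum and given no treatment, and each rat had its own Affymetrix array (rats 1 to 4 are replicates 1 to 4 of the labels). The rats formed 1 group, so no groups were compared and no test between conditions was possible. The question open to the design is which of these P450 genes gave a signal in male liver and how much that signal differed between animals.

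Cytochromes P450 are heme enzymes of the endoplasmic reticulum that insert an oxygen atom into drugs, steroids and fatty acids, with electrons delivered by P450 reductase and cytochrome b5. In the rat, several Cyp2c enzymes hydroxylate androgens and other steroids and are known for a strong sex difference. The pulsed growth hormone release of males sustains Cyp2c11 through the transcription factor STAT5b, while the steadier release of females sustains Cyp2c12, whose promoter is bound by the liver factor HNF6, encoded by Onecut1. Cyp2c13 is known as a male form, Cyp2c7 as a retinoid hydroxylase that is higher in females, Cyp2c22 as a retinoid hydroxylase, and Cyp2c23 as an epoxygenase of arachidonic acid rather than a steroid hydroxylase. All rats here were male, so the assignment of any gene to a sex was not tested.

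In the RefSeq annotation of the rat assembly GRCr8, which was used for names, gene order and promoter sequence, all 6 genes lie on chromosome 1. Among 17 genes and pseudogenes there whose symbol begins with Cyp2c, Cyp2c12 and Cyp2c13 are direct neighbours with 0 genes between them, and Cyp2c23 stands apart, with 81 genes between it and Cyp2c22. Promoter windows of 300 bases, from 250 bases before the RefSeq transcript start to 50 bases after it, were found for all 6 genes. The windows of Cyp2c12 and Cyp2c13 shared 216 identical bases, or 72%, in a global alignment, and those of Cyp2c7 and Cyp2c12 shared 191, or 63.7%. The other 13 pairs shared between 47.7% and 59.7%, and the level for unrelated windows was not computed. The windows below are shown because the neighbours Cyp2c12 and Cyp2c13 gave opposite patterns over the 4 rats, because Cyp2c7 is the other gene linked to females, and because Cyp2c11 is the main male form. Each is printed 5′ to 3′ along its gene, with matches to the HNF6 core (ATTGAT, either strand) and to an HNF4 core (CAAAGTNCA, either strand) in capitals. Cyp2c12 is taken from chr1:248676985-248677284 (minus strand), Cyp2c13 from chr1:248787139-248787438 (minus strand), Cyp2c7 from chr1:247966144-247966443 (plus strand) and Cyp2c11 from chr1:246174966-246175265 (plus strand).
Cyp2c12: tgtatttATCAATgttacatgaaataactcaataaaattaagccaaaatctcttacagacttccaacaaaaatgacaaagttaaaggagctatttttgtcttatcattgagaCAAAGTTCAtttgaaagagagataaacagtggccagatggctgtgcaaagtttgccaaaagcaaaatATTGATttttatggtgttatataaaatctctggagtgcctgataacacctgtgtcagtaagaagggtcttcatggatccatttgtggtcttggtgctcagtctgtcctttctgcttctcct
Cyp2c13: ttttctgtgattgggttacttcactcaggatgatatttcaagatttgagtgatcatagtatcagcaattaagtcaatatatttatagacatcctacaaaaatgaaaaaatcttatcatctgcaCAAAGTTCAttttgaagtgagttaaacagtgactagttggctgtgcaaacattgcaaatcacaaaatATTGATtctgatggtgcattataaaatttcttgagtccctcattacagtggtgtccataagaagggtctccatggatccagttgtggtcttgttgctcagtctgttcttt
Cyp2c7: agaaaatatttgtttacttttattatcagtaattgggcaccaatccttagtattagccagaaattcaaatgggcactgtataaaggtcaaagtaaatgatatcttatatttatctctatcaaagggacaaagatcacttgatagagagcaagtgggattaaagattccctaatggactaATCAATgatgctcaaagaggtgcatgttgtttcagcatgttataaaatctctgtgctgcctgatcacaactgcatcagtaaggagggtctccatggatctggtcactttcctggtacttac
Cyp2c11: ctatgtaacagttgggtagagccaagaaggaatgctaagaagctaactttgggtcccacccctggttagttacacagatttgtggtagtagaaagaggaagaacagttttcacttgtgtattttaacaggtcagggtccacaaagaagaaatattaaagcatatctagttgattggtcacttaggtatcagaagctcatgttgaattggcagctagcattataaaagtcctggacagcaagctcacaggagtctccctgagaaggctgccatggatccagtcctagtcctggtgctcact

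The HNF6 core occurred in Cyp2c12 with its first base 71 bases before the transcript start, and a second time, on the opposite strand, 243 bases before it. In Cyp2c13 it began 60 bases before the start, and in Cyp2c7, on the opposite strand, 71 bases before it. Among all 33469 windows of the same length, 8.06% held this core. The HNF4 core began 138 bases before the start of Cyp2c12 and 127 bases before that of Cyp2c13, and 1.24% of all windows held it. The letters TATAAA, on either strand, were found in 5 of the 6 windows, all but that of Cyp2c23, against 14.2% of all windows. The match nearest the start began 31 bases before it in Cyp2c11 and Cyp2c7, 41 in Cyp2c13, 52 in Cyp2c12 and 197 in Cyp2c22. In Cyp2c13, Cyp2c12 and Cyp2c22 the distance is longer than that of a usual TATA box, and the RefSeq starts were taken as annotated. The paired half-sites of STAT5 (TTCNNNGAA) were found in 0 of the 6, against 8.87%. No match of one motif overlapped a match of another. The motifs were picked after the sequences had been read, and a match describes letters only.

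**Figure D1:**
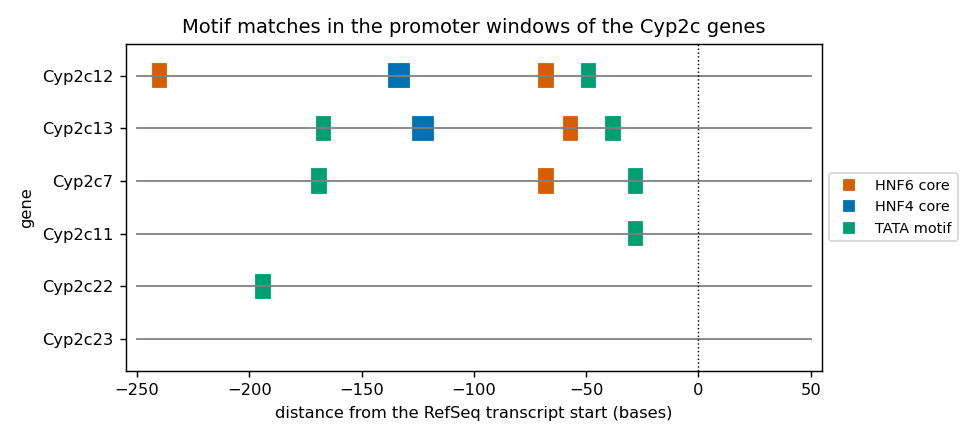
Motif matches in the 6 promoter windows of Cyp2c genes, drawn to scale by distance in bases from the RefSeq transcript start (dotted line). Orange boxes mark the HNF6 core, blue boxes the HNF4 core and green boxes the TATA motif, each on either strand; toward the start, Cyp2c12 and Cyp2c13 both carry the HNF4 core, the HNF6 core and a TATA motif in that order, and Cyp2c23 carries 0 matches.

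Signals of all 6 genes lay above a background level of 9.45 on the log2 scale, against 13.3% of all named genes. To set this level, 54 genes typical of brain, muscle, testis, eye and pituitary were taken, and the 95th percentile was read from the means of their 73 probe sets. It depends heavily on the myosin gene Myh1, of whose 5 probe sets 4 lay above it. Without Myh1 the level was 8.28, and 6 of 6 Cyp2c genes and 48.4% of named genes lay above it. At the 98th percentile the level was 10.67, which 5 of 6 Cyp2c genes and 4.49% of named genes exceeded, with Cyp2c12 below. Probes differ in how brightly they bind, so these calls describe signal and not the amount of transcript, and the genes are not ranked against each other.

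The tissue label was checked against cell type markers. All 9 hepatocyte markers on the array were above the level, among them albumin (Alb) at 15.06 ± 0.02, transthyretin (Ttr) at 14.32 ± 0.02 and Serpina1 at 14.17 ± 0.01 (log2 signal, SD, n = 4 rats). Of the markers of other cells, 4 of 6 for Kupffer cells, 1 of 5 for endothelial cells, 1 of 8 for stellate cells, 0 of 3 for bile duct cells and 0 of 4 for lymphocytes were above it. Of all named genes, 13.3% were above it, and 18.7% of these were flat, that is, equal to within 0.001 on all arrays. The 1 endothelial marker above it, Kdr, was flat too, so its values say nothing of differences between rats. Over all markers of a type, the mean signal ran over the 4 rats from 13.70 to 13.80 for hepatocytes, from 9.72 to 9.98 for Kupffer cells, from 8.59 to 8.71 for endothelial cells, from 8.32 to 8.70 for stellate cells, from 7.87 to 7.94 for bile duct cells and from 7.84 to 7.89 for lymphocytes.

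Cyp2c11, the main male form, gave log2 signals of 13.59, 13.55, 13.58 and 13.42 in rats 1 to 4, a mean of 13.54 ± 0.08 (SD, n = 4). It varied least of the 6 genes. Its highest and lowest rats differed 1.12-fold on the linear scale, and its SD exceeded that of 46.8% of all probe sets above the level that were not flat (flat means equal to within 0.001 on all arrays). This SD exceeded that of 51.5% of the 200 with the nearest mean signal. Among the 12 with means from 13.5 to 14, however, the median SD was 0.046 and the 90th percentile 0.064, both below that of Cyp2c11. Rat 4 stood somewhat below the other 3, and without it the SD was 0.018. In bulk liver, fewer cells that express a gene and less of its RNA per cell cannot be told apart, here and for the genes that follow.

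Cyp2c13, the other male form, had 12.84, 13.13, 12.71 and 12.99 in rats 1 to 4 (12.92 ± 0.18, SD, n = 4). The 2 rats with the higher values were rats 2 and 4, and the highest exceeded the lowest 1.34-fold. The suffix of its probe set (_s_at) marks probes shared by several transcripts, so signal from related genes may be included. Probe sequences were not used here, and the same question was not tested for the other genes of this closely related cluster.

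Cyp2c22 had 13.37 in rat 1 and 13.08, 13.10 and 13.04 in rats 2 to 4 (13.15 ± 0.15, SD, n = 4). Rat 1 lay above the other 3, and without it the SD was 0.031. The highest rat exceeded the lowest 1.26-fold.

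Cyp2c7 had 13.37, 13.25 and 13.32 in rats 1, 2 and 4, and 12.90 in rat 3 (13.21 ± 0.21, SD, n = 4). Rat 3 was thus 0.31 below the mean, and without it the SD was 0.064. A gene described as higher in females gave a signal well above the level in all 4 males, with a 1.39-fold difference between the highest and the lowest rat.

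Cyp2c12, the female form that hydroxylates steroid sulfates, had 9.89, 9.09, 10.10 and 9.35 in rats 1 to 4 (9.61 ± 0.47, SD, n = 4). Rats 1 and 3 were above the background level and rats 2 and 4 below it, so the mean passed by only 0.16 and the call was lost without rat 3. No fold is given against the rats below the level. Its SD, which rests on those values too, exceeded that of 97.4% of probe sets above the level that were not flat, and 98.5% of the 200 with the nearest mean signal, whose median SD was 0.077. Since it belongs to this set through rats 1 and 3 alone, these shares only describe it.

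Cyp2c23, the arachidonic acid epoxygenase, had 12.70, 12.52, 12.61 and 13.02 in rats 1 to 4 (12.71 ± 0.22, SD, n = 4). Rat 4 was the highest, 1.41-fold above rat 2, and without rat 4 the SD was 0.088. The 1 further gene of the cluster with a probe set of its own, the constitutive form Cyp2c6v1, had 12.65, 12.49, 12.40 and 12.59 (12.53 ± 0.11, SD, n = 4).

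**Figure D2:**
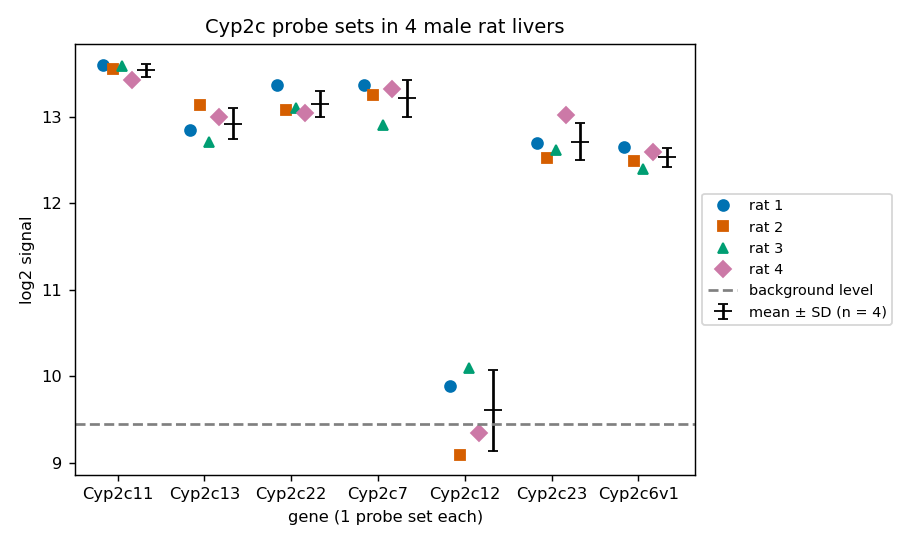
Log2 signal of each Cyp2c probe set in rats 1 to 4 (coloured symbols), with the mean and SD over the 4 rats in black and the background level of 9.45 as a dashed line; heights of different genes are not relative amounts. The points of Cyp2c12 lie on both sides of the line, from 9.09 to 10.10, while the other genes lie between 12.40 and 13.59.

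An SD of at least 0.1 was found in 5 of the 6 genes, Cyp2c12 included, against 32.2% of all named genes above the level, of which 18.7% were flat. The median SD of the 6 genes was 0.198 log2 units, against 0.065 over 1386 named genes above the level and 0.083 over the 1127 of these that were not flat. Without Cyp2c12 it was 0.182 over the other 5 genes, a setting chosen after seeing the data. The SDs of Cyp2c7, Cyp2c23, Cyp2c13 and Cyp2c22 exceeded those of 86.0%, 86.4%, 82.3% and 77.0% of probe sets above the level that were not flat. Each rat had 1 array, so a difference between animals and a difference between arrays cannot be told apart.

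**Figure D3:**
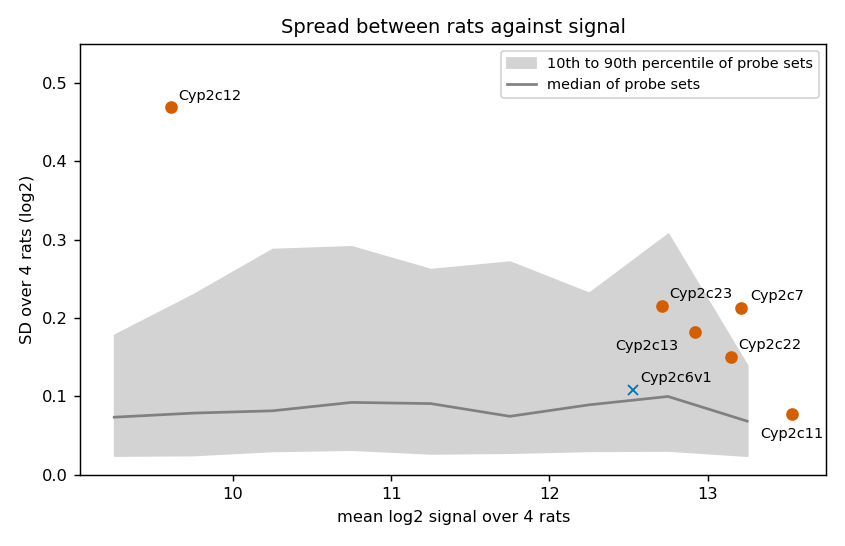
SD over the 4 rats (log2 units) against mean log2 signal for the 6 Cyp2c genes (orange circles) and Cyp2c6v1 (blue cross), over the median (grey line) and the 10th to 90th percentile (grey band) of probe sets above the level that are not flat, in signal classes with at least 20 of them. Cyp2c12, at an SD of 0.47, lies far above the band, and Cyp2c7, at 0.21, lies above it too. Cyp2c11, at 0.08, has the smallest SD of the 6, but its mean signal lies past the last class drawn, so no band stands beside it.

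The 6 genes did not move as 1 block over the rats. Rat 1 was the highest for 3 genes (Cyp2c11, Cyp2c22 and Cyp2c7) and the lowest for 0, while rats 2, 3 and 4 were each the highest for 1 and the lowest for 2. Among named genes above the level that were not flat, 23.3% were highest in rat 1, 31.0% were lowest in rat 1, 35.6% in rat 2 and 15.5% in rat 3. The median deviation from a gene's own mean was 0.11 in rat 1, -0.02 in rat 2, -0.08 in rat 3 and -0.02 in rat 4. Among the 15 pairs of genes, 0 pairs deviated in the same direction in all 4 rats, and 2 pairs, Cyp2c12 with Cyp2c13 and Cyp2c11 with Cyp2c23, deviated in opposite directions in all 4. For Cyp2c11 with Cyp2c23 this rests on deviations close to the mean, 0.018 for Cyp2c11 in rat 2 and -0.015 for Cyp2c23 in rat 1. Such shares over pairs of other genes were not computed.

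Cyp2c12 and its chromosomal neighbour Cyp2c13 were the least alike. The deviation of Cyp2c12 minus that of Cyp2c13 was 0.36 in rat 1, -0.73 in rat 2, 0.70 in rat 3 and -0.33 in rat 4. The values of Cyp2c12 in rats 2 and 4 lay below the background level and the Cyp2c13 probe set may include related transcripts, so the sizes in this contrast describe signals and are not relative amounts. The Euclidean distance between the 4 deviations of this pair was 1.13, the largest of the 15. The 5 pairs with Cyp2c12 lay at 0.73 or more and the 10 pairs without it at 0.50 or less, the smallest being Cyp2c11 with Cyp2c22 at 0.21. Distances grow with the SD, so those of Cyp2c12 are large in part because its spread is.

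**Figure D4:**
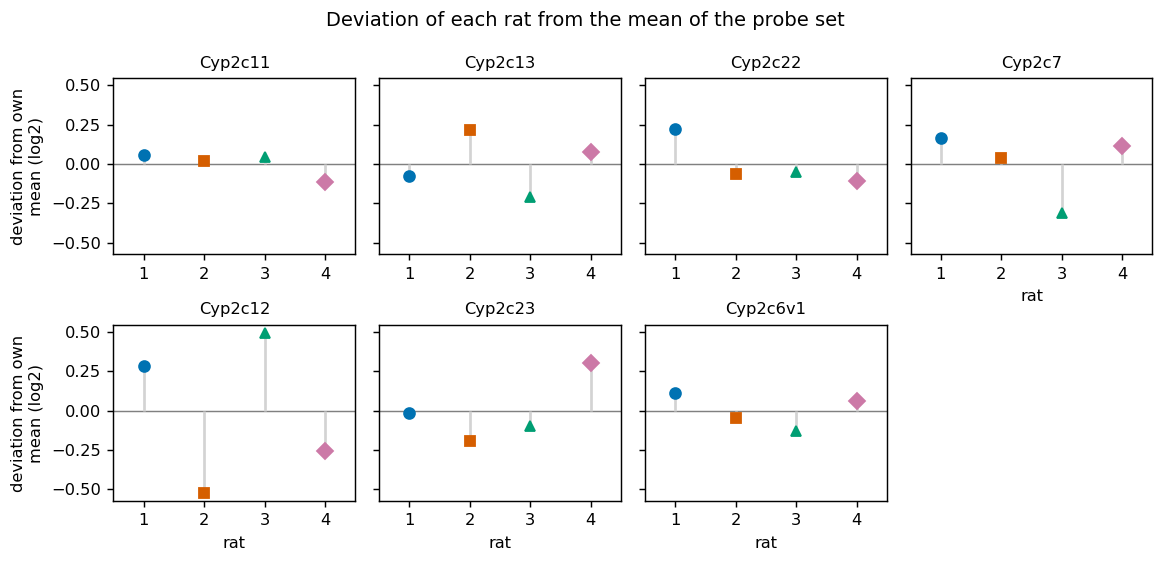
Deviation of each rat from the gene's own mean (log2 units) for the 6 Cyp2c genes and Cyp2c6v1, 1 symbol per rat. Cyp2c12 is high in rats 1 and 3 and low in rats 2 and 4, Cyp2c13 runs the opposite way with smaller steps, and Cyp2c7 departs mainly in rat 3.

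Regulators known to act on these genes were measured beside them. Onecut1, which encodes HNF6, had 8.30, 7.46, 8.11 and 7.55 in rats 1 to 4 (7.85 ± 0.41, SD, n = 4). Like Cyp2c12 it was higher in rats 1 and 3 than in rats 2 and 4, but its signal was below the background level in every rat, and of the 4 rats only rat 1 exceeded the level of 8.28 found without Myh1. Hnf4a, a nuclear receptor that binds Cyp2c promoters, had 9.75, 9.68, 9.86 and 9.38, and Cebpb, a liver-enriched leucine zipper factor, had 9.67, 9.27, 9.84 and 9.66. Both were highest in rat 3, as was Cyp2c12, but Hnf4a in rat 4 and Cebpb in rat 2 lay below the background level. With 4 rats a correlation was not computed. The order of the rats in Cyp2c12 (3, 1, 4, 2) was also found in 9.23% of named genes above the level that were not flat, and a maximum in rat 3 with a minimum in rat 2 in 16.8%, so this pattern was common on these arrays.

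Some markers of stellate cells also differed between these rats. The collagen Col3a1 had 10.80, 11.15, 10.23 and 11.15 in rats 1 to 4, high where Cyp2c12 was low, and lowest in rat 3, where Cyp2c7 and Cyp2c13 were lowest too. Over all 8 stellate cell markers, of which Col3a1 alone was above the level, the mean signal was 8.53, 8.70, 8.32 and 8.70. Col1a1, Col1a2 and Dcn were lowest in rat 3 too. Acta2 (8.42, 8.48, 8.50 and 8.47), however, was highest there, Pdgfrb ranged over only 0.06, and Des and Lrat were flat. Over the 6 Kupffer cell markers it was 9.72, 9.98, 9.89 and 9.80, lowest in rat 1. The complement genes C1qa (9.80, 10.39, 10.22 and 10.12) and C1qc (9.96, 10.23, 10.10 and 10.13) were lowest in rat 1 too. The complement gene C1qb (10.02, 10.05, 9.94 and 9.97), however, was lowest in rat 3, and the receptor Clec4f (10.38, 10.82, 10.59 and 10.28) in rat 4. The 1 endothelial marker above the level, Kdr, was flat at 9.56. The mean signal of the 9 hepatocyte markers was 13.70, 13.78, 13.80 and 13.78. In rat 1, Apoa1 stood at 12.34, against 12.92 to 13.03 in the other rats, and Apoa2 at 13.31, against 13.49 to 13.56. Fgb and Hpx, however, were highest in rat 1, so the hepatocyte markers did not all differ in the same direction. The part of other cells in the Cyp2c differences was not tested.

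**Figure D5:**
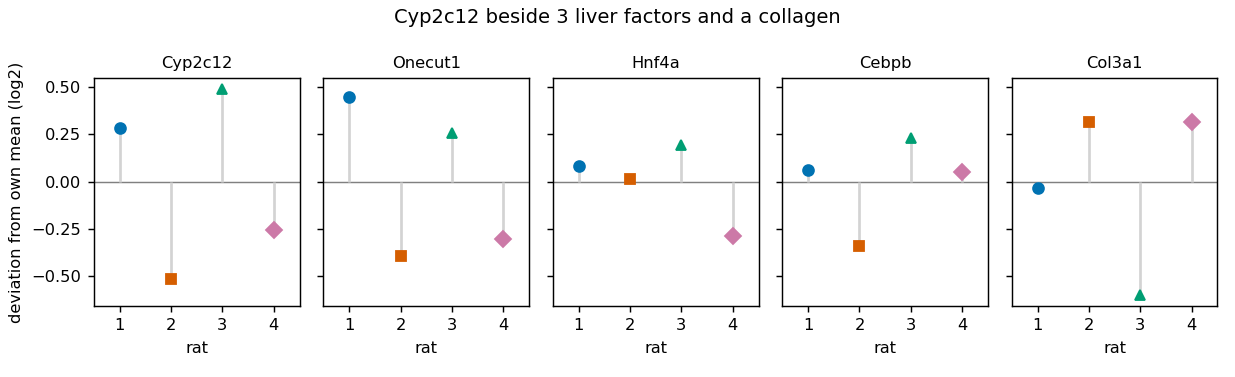
Deviation of each rat from the gene's own mean (log2 units) for Cyp2c12, for the liver factors Onecut1, Hnf4a and Cebpb, and for the collagen Col3a1. Cyp2c12 and Onecut1 are both above their means in rats 1 and 3 and below them in rats 2 and 4, while Col3a1 is lowest in rat 3 and highest in rats 2 and 4; Onecut1 lies below the background level.

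Of the growth hormone pathway, 4 of 14 genes on the array were above the level, and of the liver transcription factors 2 of 15, Hnf4a and Cebpb, against 13.3% of all named genes. The growth hormone receptor (Ghr) had 9.95, 10.03, 9.96 and 10.20, and the circulating growth factor Igf1, a product of growth hormone action, had 12.63, 12.77, 12.57 and 12.55. Its binding partner Igfals had 11.12, 10.78, 11.01 and 10.65. Stat5b, the factor through which the male pulses act, was flat at 8.05, below the level, so its values say nothing of differences between rats. No probe set of Bcl6, a repressor higher in male liver, was used here. Cux2, a repressor known from female liver, had a mean of 7.06, also below the level.

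Other genes with a known sex difference were measured as well. Of the genes listed as male-predominant, 7 of 7 on the array were above the level, against 13.3% of all named genes, with a median SD of 0.176. They included the carbonic anhydrase Ca3 (13.06 ± 0.14), Cyp3a2 (12.76 ± 0.10), Hsd11b1, which regenerates active glucocorticoid (12.67 ± 0.17), the urinary protein gene Obp3 (12.02 ± 0.39) and Cyp3a18 (11.85 ± 0.41), each over n = 4 rats. Of those listed as female-predominant, 0 of 6 were above it, a count near the 13.3% of all named genes in so short a list. The P450 genes Cyp3a9 (9.26 ± 0.56) and Cyp2a1 (9.25 ± 0.21) lay just below it, and both exceeded the level of 8.28 found without Myh1.

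The genes whose deviations over the 4 rats lay nearest were sought for the 5 members with an SD of at least 0.1, among 1121 named genes above the level that were not flat. Cyp2c13 was nearest to Serpina6, the corticosteroid-binding globulin of plasma, at a distance of 0.044, with 11.48, 11.79, 11.35 and 11.68 in rats 1 to 4. Pdlim1 (0.084) and the aldehyde oxidase Aox1 (0.11) followed. Cyp2c12 was nearest to Eci1, an isomerase of fatty acid oxidation, at 0.21, with 10.75, 9.75, 10.77 and 10.26. Its next neighbours were Obp3 (0.25), from the male-predominant list, and Kynu (0.28), of tryptophan breakdown. The neighbours of Cyp2c7 were the glutathione transferase Gsta1 (0.14), Lamtor4 (0.14) and the matrix protein gene Dpt (0.15), those of Cyp2c22 were the globin gene Hba-a3 (0.038), Wbp1l (0.069) and Slc41a2 (0.073), and those of Cyp2c23 were Tmem140 (0.10), Stat3 (0.13) and the protease inhibitor gene Cst3 (0.14). Within a distance of 0.2 there were 118 genes for Cyp2c22, 25 for Cyp2c13, 12 for Cyp2c23, 9 for Cyp2c7 and 0 for Cyp2c12. Distances grow with the SD of the member, and their median over all 1121 genes ran from 0.31 for Cyp2c22 to 0.81 for Cyp2c12. Counts and distances are therefore not compared between members. With 4 rats, close matches were easily found for Cyp2c22, and all matches describe these animals only.

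Genes that serve P450s were measured too. Of the electron partners and membrane partners, 4 of 6 were above the level, against 13.3% of all named genes. P450 reductase (Por) had 9.52, 9.25, 9.68 and 9.04, a mean just below the level, and was higher in rats 1 and 3, as Cyp2c12 was. Cytochrome b5 (Cyb5a) had 12.42, 12.45, 12.47 and 12.47 and hardly differed. The reductase of cytochrome b5 (Cyb5r3) had 10.93 ± 0.15, and the membrane partners Pgrmc1 and Pgrmc2 had 11.89 ± 0.07 and 9.96 ± 0.09 (SD, n = 4). Of the heme genes, 3 of 8 were above the level. Alas1, the rate-limiting enzyme of heme synthesis in liver, had 9.67, 9.30, 10.08 and 9.20, again higher in rats 1 and 3. Alas1 lay below the level in rats 2 and 4, so its mean passed through rats 1 and 3 alone. Alad (11.09 ± 0.04, SD, n = 4) hardly differed and Urod was flat at 9.48. Genes of steroid metabolism were above the level for 8 of 14. Higher in both rats 1 and 3 than in rats 2 and 4 were Hsd17b10 with 11.44, 10.94, 11.63 and 11.21, Hsd17b6 with 10.80, 10.34, 10.77 and 10.17, Hsd17b12 with 10.15, 9.99, 10.25 and 10.04, and Hsd3b5 with 12.18, 12.07, 12.16 and 12.08. The other genes of the list above the level did not follow this. Hsd17b4 had 11.46, 11.30, 11.41 and 11.50, Akr1c14 had 11.16, 10.69, 10.92 and 11.19, Hsd11b1 had 12.42, 12.79, 12.75 and 12.72, and Akr1d1 was flat at 10.17. The share of all named genes higher in both rats 1 and 3 than in rats 2 and 4 was not computed. The 9.23% with the same order of rats as Cyp2c12 are only a part of it. The pattern is therefore not shown to be particular to Por, Alas1 or these steroid genes, and Hsd3b5 ranged over only 0.11.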

How the data were processed

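The authors deposited log2 signals of 15923 probe sets for 4 rat livers, 1 array each; R 2.4.1, affy 1.12.2, GCRMA and RMA are named per the submitters' processing notes, but which of GCRMA and RMA made the values is not given in the sources used here. All 4 array medians were 8.11. The scanner settings name the array RAE230A, the labels RAE230-2. Of the probe sets, 12789 carried 1 symbol in the platform annotation, 312 several and 2822 none, and 12754 matched the GRCr8 gene table by gene number. A gene was represented by its brightest probe set. No values were changed. Python 3.11.15 with numpy 2.4.6 and pandas 2.3.3 gave means, SDs, distances and counts, and the distance search was tested on simulated data. The number of arrays limits the precision.

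The members and the gene lists were chosen with earlier results of these data known. Besides the members, genes were named by a rule: the other Cyp2c genes, the 3 brightest and 2 most variable genes of each list above the level, 7 regulators and partners, and 3 nearest genes for each member with an SD of at least 0.1; other genes named were chosen after their values were seen. Alternatives covered the background level, scaling, probe set choice and leaving out each rat.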

Additional observations from a re-analysis of the deposited data

Results flagged for a closer look

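In 6 genes named beside the Cyp2c genes, out of 56 genes checked, 1 rat lay far from the other 3 relative to the whole range. The critical value has a nominal chance of about 5%, for genes not chosen by their values. Some of the genes checked were named for a large SD or a near pattern in these same rats. The share over all genes was not computed, so the count is not shown to exceed chance. In rat 4, Cyp3a2 (12.91 against 12.69 to 12.73), Stat3 (10.13 against 9.61 to 9.65) and Cst3 (10.29 against 9.96 to 9.97) lay above the other rats. Stat3 and Cst3 were named because their patterns are near that of Cyp2c23, which was highest in rat 4, so these are not independent of it. In rat 1, Wbp1l was higher (10.79 against 10.55 to 10.58), named for its nearness to Cyp2c22, and Apoa1 was lower (12.34 against 12.92 to 13.03). In rat 3, Cps1 was higher (12.67 against 12.41 to 12.44). Of the 6 Cyp2c genes, 0 had such a rat, and Cyp2c22 came nearest, with a gap of rat 1 to the next of 0.821 of its range, just under the critical value.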

How the results depend on the processing

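Under quantile normalization of the arrays, the mean signal of each Cyp2c gene moved by less than its SD. Scaling the arrays on an upper percentile left every mean as it was. Leaving out 1 rat cannot move a mean by as much as its SD. Neither of these settings is therefore a test of the means. The count above background was 6, and 5 at the 98th percentile, without replicate 3, when every array had to exceed the level, and when probe sets ending in _s_at, _x_at or _a_at were left out. Cyp2c12 was lost in the first 3 of these, and Cyp2c13, whose 1 probe set has such a suffix, gave no value in the last. The median SD of 0.198 ran from 0.163 to 0.22 when 1 rat was left out, and from 0.181 to 0.214 under the other settings. Each gene has 1 probe set, so no second probe set could check a pattern, and the median over probe sets changes nothing. No paired analysis was possible because the rats form 1 group.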

Other observations

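Genes of arachidonic acid metabolism, the pathway of Cyp2c23, were above the background level for 4 of 10, against 13.3% of all named genes. Of these, the fatty acid hydroxylases Cyp4a1 (10.59, 9.34, 9.95 and 10.30 in rats 1 to 4) and Cyp4a3 (11.06, 9.77, 10.35 and 11.04) were lowest in rat 2, as were Cyp2c23 and 35.6% of all named genes above the level that were not flat. The epoxygenase gene Cyp2j3 had 9.15, 9.37, 9.66 and 9.88, lowest in rat 1. Cyp4a1 in rat 2 and Cyp2j3 in rats 1 and 2 lay below the level. The microsomal epoxide hydrolase Ephx1 had 12.64, 13.21, 12.08 and 12.49, highest in rat 2 and lowest in rat 3, as Cyp2c13 was; 15.5% of all these genes were lowest in rat 3. Its cytosolic counterpart Ephx2, which hydrolyses the epoxides that Cyp2c23 makes, had a mean of 8.07, below the level.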
